A study of Mus musculus with 12 samples.

Results

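Immortalised striatal cells with 109 CAG repeats in the mouse huntingtin gene (Hdh109/109) were compared with cells that carry 7 repeats (Hdh7/7), both transfected with a construct labelled DNRest. The comparison rests on 4 of the 12 arrays of the series, 2 per line, chosen by the genotype and transfection in the array titles. The other 8 arrays give the 2 settings against which it is read, each line with an empty vector and each line left untransfected, again with 2 arrays a group. In the study DNRest is a dominant-negative form of REST, but the labels give only its name. Both lines come from mice homozygous for the knock-in allele and were grown at 33°C in serum-containing medium. The groups are Hdh109/109 with DNRest, Hdh7/7 with DNRest, Hdh109/109 with empty vector, Hdh7/7 with empty vector, Hdh109/109 untransfected and Hdh7/7 untransfected. Each genotype is represented by 1 line, so repeat length and any other difference between the 2 lines cannot be told apart. The series calls the arrays biological replicates but does not say that each is its own culture, and the p-values therefore cover array-to-array spread that may be partly technical. The source name gives the other genotype for 6 of the 12 arrays, and it reads Hdh109/109 for all 4 DNRest arrays; titles and genotype fields were followed.

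REST is a zinc-finger repressor that recruits histone-modifying corepressors to neuronal genes and keeps them silent outside neurons. Huntingtin binds REST in the cytoplasm, and the expanded protein is known for letting more REST reach the nucleus, where neuronal genes are then repressed. A dominant-negative REST binds the same sites without the repressor domains. In the interferon pathway, receptors of the cytosol sense nucleic acid and start the production of interferon, and interferon regulatory factors and STAT proteins then switch on antiviral effectors, antigen presentation and chemokines.

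Of the 44505 probes on the array, 15224 were detected on at least 2 of the 12 arrays and were tested, and they represent 8487 named genes. The DNRest arrays detected 12458 and 13209 probes in Hdh109/109 cells, against 12432 and 12468 in Hdh7/7 cells. Across probes, replicates correlated at r = 0.993 in both lines, whereas r lay between 0.913 and 0.917 for arrays of unlike lines. Hdh109/109 DNRest replicate 1 had a higher raw median signal (103.7) than replicate 2 (77.81) and than the Hdh7/7 DNRest arrays (71.11 and 70.15). All levels below are background-corrected, quantile-normalized log2 signals, which can be compared between arrays for a probe but not between probes.

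The huntingtin gene itself was read first. Its probe (Htt) gave 4.95 and 4.86 in Hdh109/109 cells, against 6.86 and 6.87 in Hdh7/7 cells. It was undetected in the Hdh109/109 cells and was at least 1.9-fold lower there (limma, adjusted p = 2.59e-05), and the probe does not read repeat length. The probe for Rest read 4.62 and 4.69 in Hdh109/109 cells, against 4.62 and 4.72 in Hdh7/7 cells, undetected on every array, so it was not tested and gives no measure of the construct. Where one line was undetected, as for Htt, the fold is a lower bound, the bright line's mean set against a floor for the dim line, which on each array is its dimmest detected signal or the probe's own signal if that is greater.

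With DNRest, 3342 of the 8487 genes differed between the lines, 39.4% of those tested at an adjusted p under 0.05. They split into 1701 higher (20.0%) and 1641 lower (19.3%) in Hdh109/109 cells, shares against which each gene list below is read. The median absolute log2 difference of these genes was 0.83, 1259 of them reached 1, and 169 reached 3, of which 110 were higher and 59 lower. The arrays of the 2 lines did not overlap for any of the 3342, nor for 6651 of the 8487 genes tested (78.4%). In probes, 5611 were called, 2775 higher and 2836 lower. Leaving out 1 array lowered the probe count to 3726 (without Hdh109/109 DNRest replicate 1), 3512 (without replicate 2), 3652 (without Hdh7/7 DNRest replicate 1) or 3645 (without replicate 2). When arrays were scaled by their medians and not quantile-normalized, 1415 genes were higher and 543 lower (72.3% of calls higher, against 50.9%), and the median difference of all genes was 0.15, against -0.02.

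Among genes detected on all 4 DNRest arrays, Dlk1 and Ccl5 were the highest in Hdh109/109 cells relative to Hdh7/7 cells. Dlk1, a Notch-related inhibitor of differentiation, read 12.33 and 12.43 in Hdh109/109 cells, against 6.51 and 6.51 in Hdh7/7 cells, a log2 difference of 5.87 ± 0.15 (SE, n = 2 against 2; adjusted p = 6.73e-09). Ccl5, a chemokine that attracts T cells, read 11.89 and 11.81 in Hdh109/109 cells, against 6.12 and 6.08 in Hdh7/7 cells, and Ccl7, a monocyte chemokine, read 11.09 and 11.12 in Hdh109/109 cells, against 6.72 and 6.68 in Hdh7/7 cells. Their differences were 5.75 ± 0.23 and 4.41 ± 0.38. Cavin2, which shapes caveolae, was 43.3-fold higher in Hdh109/109 cells, and Fbn2, a fibrillin of microfibrils, 26.4-fold. Stmn2, a regulator of microtubules in growing neurites, read 10.27 and 10.31 in Hdh109/109 cells, against 6.57 and 6.32 in Hdh7/7 cells, and the matrix protease Mmp2 read 11.67 and 11.98 in Hdh109/109 cells, against 7.81 and 7.59 in Hdh7/7 cells. The RNA-binding protein gene Igf2bp3, the glutathione transferase gene Gstt3, the matrix gene Sned1, the apolipoprotein gene Apol9a and the guanylate-binding protein gene Gbp3 complete the 12 highest, with differences of 3.82, 3.80, 4.24, 3.86 and 4.15.

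Among genes detected on all 4 DNRest arrays that were lower in Hdh109/109 cells, Sox21 differed most. This transcription factor, which acts in neural progenitors, read 7.40 and 7.27 in Hdh109/109 cells, against 11.27 and 11.32 in Hdh7/7 cells, a difference of -3.96 ± 0.12 (adjusted p = 1.1e-08). Otx1, a factor of the forebrain, read 8.43 and 8.34 in Hdh109/109 cells, against 11.89 and 11.78 in Hdh7/7 cells, and Dmrta2, a factor of the cortical progenitor zone, read 7.77 and 7.96 in Hdh109/109 cells, against 10.99 and 10.95 in Hdh7/7 cells. Ccnd1, the D-type cyclin that drives entry into S phase, read 10.93 and 10.81 in Hdh109/109 cells, against 13.99 and 13.98 in Hdh7/7 cells, or 8.69-fold lower in Hdh109/109 cells. The sulfotransferase gene Chst1 and Auts2, a gene of neural development, differed by -3.52 and -3.46. Inhbb, a subunit of activin, and Prelp, a matrix proteoglycan, differed by -3.35 and -3.36. The exosome nuclease gene Dis3 and the nuclear pore gene Nup210, at -3.15 and -3.06, and Lurap1l and Scara3 complete the 12 lowest.

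Other genes were undetected in 1 line. Col3a1, a fibrillar collagen, read 11.81 and 11.91 in Hdh109/109 cells, against 5.48 and 5.82 in Hdh7/7 cells, at least 56.5-fold higher (adjusted p = 1.42e-07). The zinc-finger gene Zic1, active in the early nervous system, read 11.64 and 11.67 in Hdh109/109 cells, against 4.89 and 4.76 in Hdh7/7 cells, at least 49.1-fold higher. Lower bounds on the fold were 48.1 for the connexin gene Gjb2, 43.5 for the receptor kinase gene Pdgfra, 32.9 for the transcription factor gene Sim2 and 48.6 for Gask1b, all higher in Hdh109/109 cells. In the other direction Cadm1, a cell adhesion molecule, read 4.79 and 4.71 in Hdh109/109 cells, against 10.75 and 10.77 in Hdh7/7 cells, at least 28.1-fold lower in Hdh109/109 cells. Epb41l4a was at least 22.6-fold lower, and so were the engulfment receptor gene Megf10 (at least 17.5-fold), the sialomucin gene Podxl (16.6-fold) and the phosphodiesterase gene Pde1a (14.9-fold). Of the 3342 genes called, 688 were undetected in 1 line, of which 447 were higher and 241 lower in Hdh109/109 cells. For 62 of the 688 the bound was under 1, so no fold is given.

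**Figure D1:**
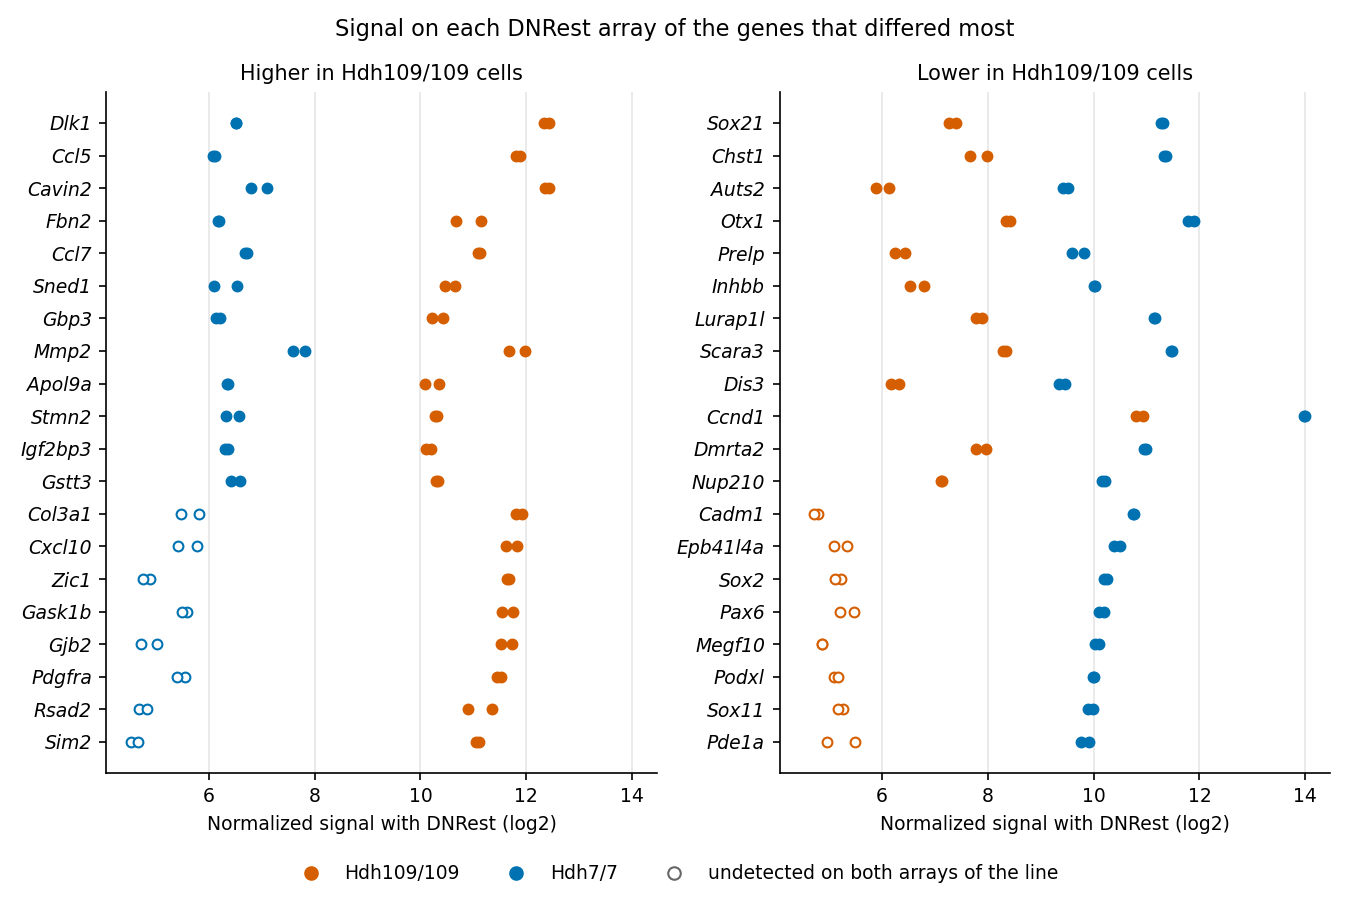
Normalized signal (log2, horizontal axis) on each of the 4 DNRest arrays for the genes that differed most, with Hdh109/109 arrays in orange and Hdh7/7 arrays in blue; open points are arrays of a line in which the probe was undetected on both. On the left the Hdh109/109 points lie to the right of the Hdh7/7 points for all 20 genes, and on the right they lie to the left for all 20. This separation follows from how the genes were chosen, and the lines' arrays did not overlap for 78.4% of all genes tested.

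Interferon-stimulated effectors had the highest share of higher calls (96.6%) among the gene lists. Of 39 antiviral effectors with a probe, 29 were tested, and 28 of these were higher in Hdh109/109 cells with DNRest while 0 were lower, against 20.0% and 19.3% of all genes. Their median difference was 2.98, and 2.23 when each undetected probe was put at its bound, where the median of all genes was -0.02. Without background correction the median was 1.82. With DNRest, 15 of the 29 were detected in Hdh109/109 cells only, so they entered the test through the line in which they were high. Of the 10 members detected on all 12 arrays, 9 were higher. The exception among the 29 was Samhd1, an antiviral hydrolase of nucleotides, at 0.07 (named after its value was seen).

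Rsad2, the antiviral enzyme viperin, read 10.90 and 11.36 in Hdh109/109 cells, against 4.69 and 4.83 in Hdh7/7 cells, at least 34-fold higher (adjusted p = 5.34e-08). Ifi27, an interferon-induced mitochondrial protein, read 9.99 and 10.24 in Hdh109/109 cells, against 4.58 and 4.82 in Hdh7/7 cells, and Trim25, the ubiquitin ligase that activates the RNA sensor RIG-I, read 10.60 and 10.54 in Hdh109/109 cells, against 4.58 and 4.68 in Hdh7/7 cells. Both were undetected in Hdh7/7 cells, and were at least 16.9-fold and 23.1-fold higher. Irgm2, an interferon-induced GTPase that acts at vacuoles of intracellular pathogens, read 9.01 and 9.42 in Hdh109/109 cells, against 4.55 and 4.50 in Hdh7/7 cells, at least 9.04-fold higher. Gbp3, a GTPase of a related family, read 10.22 and 10.42 in Hdh109/109 cells, against 6.13 and 6.21 in Hdh7/7 cells. Ifit3, which takes part in blocking viral RNA, read 9.25 and 9.69 in Hdh109/109 cells, against 4.89 and 4.84 in Hdh7/7 cells, at least 10.8-fold higher. Samd9l, an antiviral factor that slows translation, Uba7, the activating enzyme of ISG15, and Lgals3bp, a secreted glycoprotein, had lower bounds of 29.8-fold, 9.39-fold and 6.09-fold, again higher in Hdh109/109 cells.

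Promoters of 4 genes are shown as examples, the effectors Rsad2, Irgm2 and Gbp3 and the chemokine gene Cxcl10. All 4 hold the motif searched below, so they do not represent their lists. The core of the interferon-stimulated response element was searched as GAAANNGAA on both strands in the 250 bases before each start site in RefSeq (GRCm38.p6). It was found in 10 of the 25 tested effectors with a promoter entry (40%), in 4 of 15 antigen presentation genes (26.7%) and in 1 of 6 chemokine genes (16.7%). Other lists held it too, with 3 of 5 neurotrophic genes (60%), 3 of 9 REST targets (33.3%), 2 of 6 astrocyte markers (33.3%) and 2 of 8 striatal markers (25%). It was found in 118 of 1376 genes called higher (8.58%), in 99 of 1320 called lower (7.5%), in 487 of 6955 tested genes (7%) and in 2211 of all 27025 genes of the table (8.18%). A match is a description of the letters, not a site. Below, the 250 bases before the start site are given 5′ to 3′ on the gene's strand, with matches in capitals (in Rsad2 and Gbp3 the match lies on the opposite strand and is shown as its complement read on the gene's strand; in Gbp3 a pair of matches overlaps, and the window of its other start site in the table held none).
Rsad2, chr12:26456453-26456702, minus strand: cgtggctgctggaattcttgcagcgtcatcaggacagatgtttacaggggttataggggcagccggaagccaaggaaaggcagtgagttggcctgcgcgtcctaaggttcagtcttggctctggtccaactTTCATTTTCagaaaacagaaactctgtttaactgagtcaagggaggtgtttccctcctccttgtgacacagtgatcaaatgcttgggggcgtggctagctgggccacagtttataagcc
Cxcl10, chr5:92348890-92349139, minus strand: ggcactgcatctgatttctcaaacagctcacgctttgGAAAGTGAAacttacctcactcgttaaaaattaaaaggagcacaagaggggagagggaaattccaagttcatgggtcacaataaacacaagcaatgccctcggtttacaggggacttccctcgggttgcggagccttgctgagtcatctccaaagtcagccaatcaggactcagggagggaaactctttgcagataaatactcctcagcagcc
Irgm2, chr11:58214727-58214976, plus strand: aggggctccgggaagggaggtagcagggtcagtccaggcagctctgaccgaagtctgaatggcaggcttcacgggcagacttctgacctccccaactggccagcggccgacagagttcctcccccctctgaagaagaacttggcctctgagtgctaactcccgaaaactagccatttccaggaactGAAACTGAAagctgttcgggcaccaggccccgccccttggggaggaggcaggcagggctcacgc
Gbp3, chr3:142559794-142560043, plus strand: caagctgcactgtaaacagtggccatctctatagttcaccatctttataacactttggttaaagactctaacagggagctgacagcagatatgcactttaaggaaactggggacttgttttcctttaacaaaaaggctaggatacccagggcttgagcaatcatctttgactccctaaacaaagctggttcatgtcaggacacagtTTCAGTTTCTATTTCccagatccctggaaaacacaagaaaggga

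Upstream in the pathway, fewer members differed. Of 11 nucleic acid sensors and adaptors tested, 5 were higher and 1 was lower (45.5% and 9.09%, against 20.0% and 19.3% of all genes). Of the 6 detected on every array 2 were higher. The RNA sensor gene Ifih1 (MDA5) read 7.19 and 7.38 in Hdh109/109 cells, against 4.94 and 4.66 in Hdh7/7 cells, at least 2.38-fold higher. Dhx58 (LGP2), a sensor of the same family, read 7.55 and 7.89 in Hdh109/109 cells, against 5.21 and 5.41 in Hdh7/7 cells, at least 3.21-fold higher. Cgas, the cytosolic DNA sensor, read 11.66 and 11.73 in Hdh109/109 cells, against 10.73 and 10.94 in Hdh7/7 cells and differed by 0.86 ± 0.15, though not by the mean of its probes (adjusted p = 0.209), and the DNA exonuclease gene Trex1 differed by 1.11 ± 0.21. Mavs, the adaptor of the RNA sensors, was lower by the model, at -0.60 ± 0.12 (adjusted p = 0.00397), but not with median scaling (adjusted p = 0.476). Tbk1 and Irf3, the kinase and the transcription factor below the sensors, were not called, at 0.30 and -0.17, and were named after their values were seen.

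Among receptors and signalling genes, 6 of 15 tested were higher and 1 was lower (40% and 6.67%, against 20.0% and 19.3% of all genes). Of the 15, 5 were detected in Hdh109/109 cells only. Irf7, the factor that amplifies interferon production, read 7.83 and 8.04 in Hdh109/109 cells, against 5.10 and 5.16 in Hdh7/7 cells, at least 3.73-fold higher. Irf9, the DNA-binding part of the complex at the response element, read 9.41 and 9.57 in Hdh109/109 cells, against 6.75 and 6.89 in Hdh7/7 cells. Its partner Stat2 read 7.43 and 7.74 in Hdh109/109 cells, against 4.77 and 5.08 in Hdh7/7 cells, at least 2.92-fold higher. Irf1 differed by 2.14 ± 0.19 (adjusted p = 1.38e-05). The member that was lower was Ifngr1, a chain of the interferon gamma receptor, at -0.78 ± 0.12, and it was not called with median scaling (adjusted p = 0.324). Of 18 members with a probe, the 3 not tested were Ifnb1, Ifnar1 and Irf8, so the interferon beta transcript itself was not measured here above detection.

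Antigen presentation and chemokine genes were mostly higher in Hdh109/109 cells. Of 17 genes of MHC class I presentation tested, 13 were higher and 0 lower (median 1.24), against 20.0% and 19.3% of all genes. With DNRest 4 of the 17 were detected in Hdh109/109 cells only, and of the 9 detected on all 12 arrays 8 were higher. The immunoproteasome subunit gene Psmb8 read 9.52 and 9.88 in Hdh109/109 cells, against 4.77 and 5.55 in Hdh7/7 cells, at least 12.6-fold higher. Another subunit of it, Psmb9, read 7.23 and 7.85 in Hdh109/109 cells, against 4.81 and 5.09 in Hdh7/7 cells, at least 2.83-fold higher. The class I heavy chain H2-K1 read 9.60 and 9.81 in Hdh109/109 cells, against 8.04 and 8.00 in Hdh7/7 cells. H2-K1 has near-identical relatives, so its probe may read more than 1 gene. Of 12 chemokine genes tested, 10 were higher and 1 lower (83.3% and 8.33%, median 1.35). With DNRest 5 of the 12 were detected in Hdh109/109 cells only, and of the 4 detected on every array 3 were higher. Cxcl10, which attracts activated T cells, read 11.61 and 11.82 in Hdh109/109 cells, against 5.78 and 5.41 in Hdh7/7 cells, at least 51-fold higher, and Ccl2, a monocyte attractant, was at least 14.5-fold higher. Cx3cl1, the membrane-bound chemokine of neurons, went the other way, at 8.40 and 8.33 in Hdh109/109 cells, against 10.08 and 10.16 in Hdh7/7 cells.

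The same genes were then read in the other 2 settings. With the empty vector, 3941 genes differed between the lines (46.4%, with 23.9% higher and 22.5% lower; 51.5% of calls higher). Median scaling gave 3642 higher and 378 lower (90.6%) and moved the median of all genes to 0.6, against 0.01. By the quantile-normalized values 27 of the 29 effectors were higher and 0 lower (median 3.40) with the empty vector. In untransfected cells, 3313 genes differed (39.0%, with 18.1% higher and 20.9% lower); with median scaling 836 were higher and 1008 lower. By the quantile-normalized values the effectors held 6 higher and 5 lower (median 0.24). With the empty vector Rsad2 read 11.43 and 11.83 in Hdh109/109 cells, against 4.81 and 4.96 in Hdh7/7 cells. In untransfected cells it read 5.57 and 4.82 in Hdh109/109 cells, against 4.54 and 4.64 in Hdh7/7 cells, undetected on all 4 arrays. Ifit3 and Irf7 were each detected on 1 of the 4 untransfected arrays, and neither was called. In untransfected cells Trim25 read 9.28 and 9.36 in Hdh109/109 cells, against 5.01 and 4.57 in Hdh7/7 cells, where it was undetected (adjusted p = 5.48e-07).

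The change in line difference between DNRest and untransfected cells was tested as an interaction. It was called for 944 genes (11.1%), 597 with a higher difference with DNRest (7.03%) and 347 with a lower one (4.09%). Of the 29 effectors 24 were among the higher and 0 among the lower, and of 17 presentation genes 10 and 0, or 6 and 0 with median scaling. For the effectors the count was 21 to 23 without any 1 of the 8 arrays, 23 with median scaling, and 9 of 10 among members detected on every array. The fitted change was 5.76 for Rsad2 (adjusted p = 1.07e-04), and others of the effectors and chemokines were Ifit3 (4.59), Lgals3bp (4.26), Cxcl10 (4.14), Irgm2 (4.11), Samd9l (4.10), Gbp3 (4.08) and Uba7 (4.06). Of these only Gbp3 was detected in all 4 groups; Rsad2 and Irgm2 were undetected in all but Hdh109/109 cells with DNRest, so such values rest in part on signals at background and are neither bounds nor a ranking. For Samd9l both lines moved, since untransfected levels averaged 8.70 in Hdh109/109 cells and 7.03 in Hdh7/7 cells, while DNRest levels averaged 10.93 in Hdh109/109 cells and 5.16 in Hdh7/7 cells. Leaving out 1 array lowered the count of probes with a called interaction, which was 1421 (819 higher, 602 lower), to between 436 (without Hdh109/109 DNRest replicate 2) and 814 (without Hdh109/109 untransfected replicate 1).

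Between DNRest and the empty vector the line difference was called for 0 genes (0%) and 0 probes (limma, with 1253 probes at an unadjusted p under 0.05 and a smallest adjusted p of 0.309). For Rsad2 the estimate was -0.38 with a 95% interval of -1.16 to 0.41, and for Irf7 0.29 with -0.37 to 0.95; both genes were undetected in Hdh7/7 cells in both settings, so these are not changes in a measured ratio. The replicates of Hdh7/7 with empty vector spread most, with an SD of 0.34 on the log2 scale, where the remaining groups had 0.175 to 0.249. Without replicate 1 of that group, which leaves that group to the replicate with the highest raw background (median signal 161.1), 824 probes were called, 141 higher and 683 lower.

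**Figure D2:**
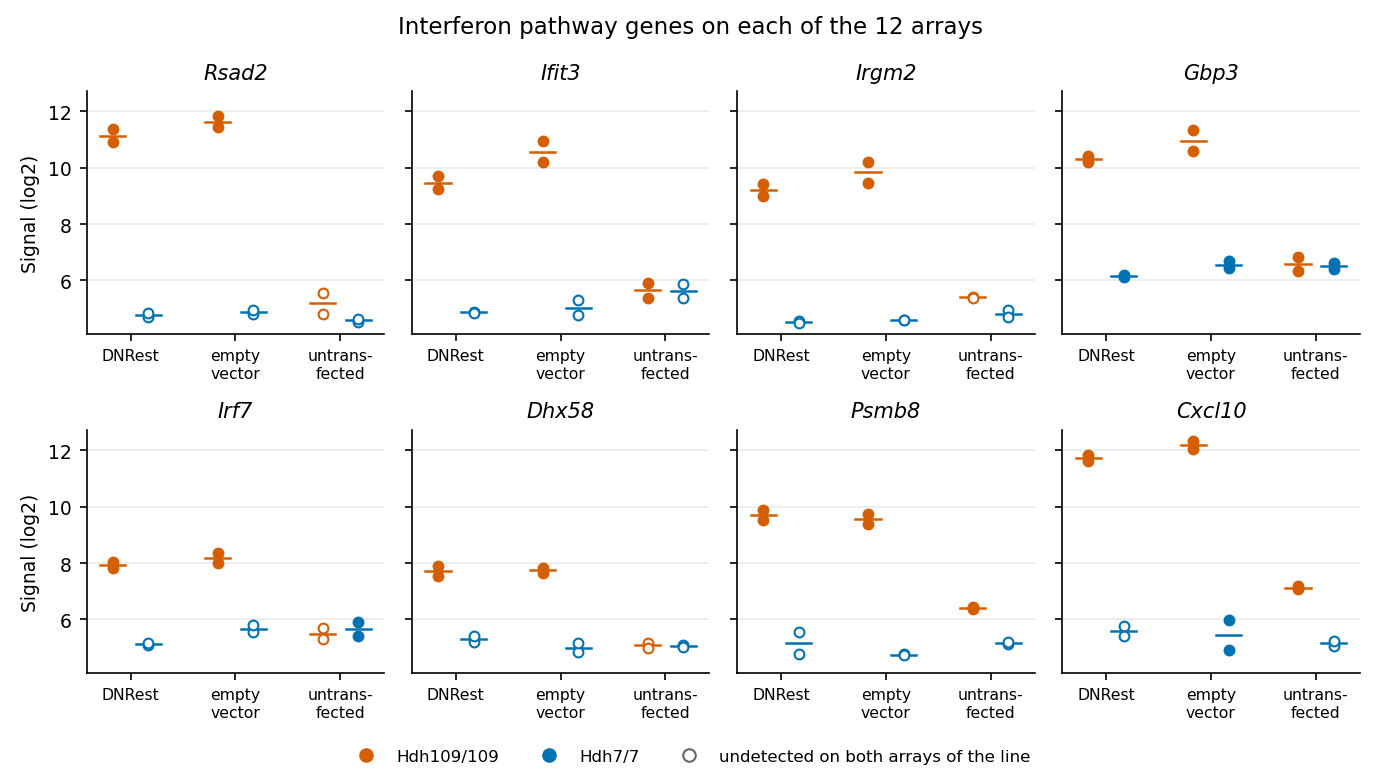
Signal (log2, vertical axis) of 8 interferon pathway genes on each of the 12 arrays, by transfection state, with Hdh109/109 in orange and Hdh7/7 in blue; short lines are group means, and open points mark groups with the probe undetected on both arrays. The lines are far apart with DNRest and with empty vector, and close together in untransfected cells for Ifit3, Gbp3, Irf7 and Dhx58.

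Markers of other cells were read beside the immune genes. Of 10 microglia markers with a probe, among them Aif1, Cx3cr1, Tmem119 and the leukocyte gene Ptprc, 0 were detected on enough arrays to be tested. Of 11 endothelial markers 3 were tested and 0 differed, and Pecam1 and Cdh5 were not among those tested. The 1 oligodendrocyte marker tested, Cnp, was not called, at 0.12. Of 6 astrocyte markers tested 2 were higher, Slc1a3, a glutamate transporter, at 2.74 ± 0.25, and Apoe, a lipid carrier, at least 1.68-fold, while Gfap and Aqp4 were not detected on enough arrays. The summed signal of the astrocyte markers was 9486 and 9729 in Hdh109/109 cells, against 9144 and 9421 in Hdh7/7 cells. Of 17 mesenchymal and smooth muscle markers, 5 were higher and 5 lower, and the lower count was 3 without any 1 of the DNRest arrays. Higher and lower shares were 33.3% and 0% for the astrocyte list and 29.4% each for the mesenchymal list, against 20.0% and 19.3% of all genes. The part of other cells in the immune and matrix results was not tested. In bulk RNA, fewer cells of a type and less RNA per cell cannot be told apart.

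Neural progenitor genes were the group with the highest share of lower calls. Of 18 tested of 26 with a probe, 14 were lower and 1 higher in Hdh109/109 cells, against 19.3% and 20.0% of all genes, with a median of -1.71. Sox2, the stem cell factor, read 5.23 and 5.11 in Hdh109/109 cells, against 10.20 and 10.25 in Hdh7/7 cells, and Pax6, a factor of dorsal progenitors, read 5.20 and 5.48 in Hdh109/109 cells, against 10.10 and 10.20 in Hdh7/7 cells. Both were undetected in Hdh109/109 cells and at least 19.4-fold and 18.5-fold lower. Sox11, a factor of early neurons, was at least 15.9-fold lower (adjusted p = 1.44e-08). Id1, a helix-loop-helix inhibitor of differentiation, read 5.95 and 6.15 in Hdh109/109 cells, against 10.96 and 11.01 in Hdh7/7 cells (named after its values were seen), and Zic1, described above, was the member that was higher. With DNRest 6 of the 18 were detected in Hdh7/7 cells only and 1 in Hdh109/109 cells only, so they entered the test through the line in which they were high. Of the 8 members detected on all 12 arrays 6 were lower. In untransfected cells the median of the group was -1.93, with 13 lower and 1 higher, and the interaction was called for 2 members upward and 2 downward.

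Striatal and neuronal identity genes were mixed. Of 27 striatal neuron markers with a probe 9 were tested, 4 of them higher and 3 lower. These shares were 44.4% and 33.3%, against 20.0% and 19.3% of all genes. With DNRest 3 of the 9 (Dlx1, Dlx2 and Penk) were detected in Hdh109/109 cells only and 1 (Pde1b) in Hdh7/7 cells only. They entered the test through the line in which they were high. The defining markers of mature medium spiny neurons, Ppp1r1b, Drd1 and Drd2, were not detected on enough arrays. The homeobox gene Dlx2, which specifies ventral forebrain neurons, read 7.87 and 7.70 in Hdh109/109 cells, against 5.52 and 5.30 in Hdh7/7 cells, at least 3.36-fold higher, and Dlx1 was at least 1.25-fold higher. Penk, the enkephalin precursor, was at least 2.43-fold higher. Lower were Meis2, a homeobox gene of striatal development, at 9.40 and 9.35 in Hdh109/109 cells, against 11.44 and 11.51 in Hdh7/7 cells, Ebf1 at -1.06 ± 0.16, with median scaling not called (adjusted p = 0.077), and Pde1b, a phosphodiesterase of striatal neurons, at least 3.06-fold. Among 8 neuron markers tested 3 were higher and 1 lower (37.5% and 12.5%). Besides Stmn2 these were Gap43, a growth cone protein, at least 2.91-fold higher, the enolase gene Eno2 at 0.75 ± 0.15 and the ubiquitin hydrolase gene Uchl1 at -1.24 ± 0.17.

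REST targets did not move one way between the lines with DNRest. Of 59 with a probe 13 were tested, 2 of them higher and 5 lower, shares of 15.4% and 38.5%, and with median scaling 3 were lower. Their median was -0.30, and 0.02 with median scaling, which turns its sign. Higher were Stmn2 and Celsr3, a cadherin of axon guidance, which read 6.83 and 6.91 in Hdh109/109 cells, against 5.53 and 5.26 in Hdh7/7 cells. Lower were Bex1, a neuronal signalling adaptor, at 5.73 and 6.00 in Hdh109/109 cells, against 8.71 and 8.59 in Hdh7/7 cells, Dner, a Notch ligand of neurons, at least 2.6-fold, and Amph, an endocytosis protein of nerve terminals, at least 1.8-fold. Cdk5r1, an activator of a neuronal cyclin-dependent kinase, read 7.39 and 7.33 in Hdh109/109 cells, against 8.21 and 8.23 in Hdh7/7 cells, and Vamp2, a vesicle fusion protein, 8.00 and 8.01 in Hdh109/109 cells, against 8.53 and 8.55 in Hdh7/7 cells. With median scaling Cdk5r1 and Vamp2 were not called (adjusted p = 0.217 and 0.634), and Vamp2 was not called without Hdh109/109 DNRest replicate 1 (0.0516) or without Hdh7/7 DNRest replicate 2 (0.0514).

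Of 8 genes that DNRest raised over the empty vector in both lines, 1 was higher and 1 lower in Hdh109/109 cells with DNRest. Shares over all genes were 20.0% and 19.3%, and 8 genes are too few to tell these counts from them. The 8 genes were chosen by their rise with DNRest, which is not tested again here. Lrp11, a membrane protein of the low density lipoprotein receptor family, read 11.06 and 11.13 in Hdh109/109 cells, against 10.81 and 10.88 in Hdh7/7 cells, a difference of 0.25 ± 0.12 with a 95% interval of -0.01 to 0.52. Unc13a, which primes synaptic vesicles, read 7.59 and 7.40 in Hdh109/109 cells, against 7.67 and 7.51 in Hdh7/7 cells, with an interval of -0.44 to 0.25, and the synapsin gene Syn1 had an interval of -0.66 to 0.06. Gnptg, Diras1 and Ttc9b were not called either, with intervals of -0.52 to 0.20, -0.60 to 0.22 and -0.13 to 0.64. Gprin1, a regulator of neurite outgrowth, was lower in Hdh109/109 cells, at 6.39 and 6.11 in Hdh109/109 cells, against 7.88 and 7.71 in Hdh7/7 cells (difference -1.54 ± 0.18, adjusted p = 1.18e-04). Ppm1e, a phosphatase of the nervous system, was higher, at 7.54 and 7.44 in Hdh109/109 cells, against 6.64 and 6.61 in Hdh7/7 cells (difference 0.86 ± 0.13, adjusted p = 5.64e-04).

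**Figure D3:**
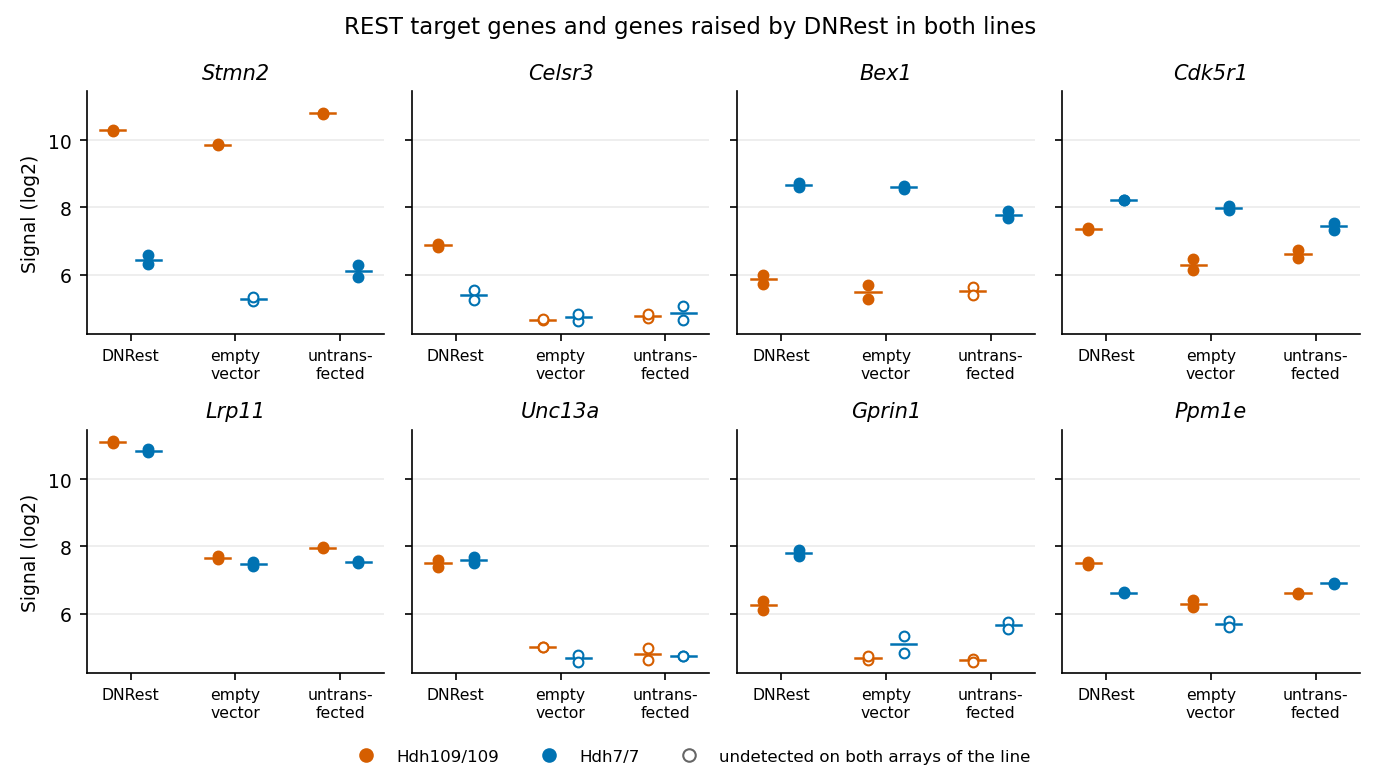
Signal (log2, vertical axis) of 4 REST targets (top) and 4 genes raised by DNRest in both lines (bottom) on each of the 12 arrays, with Hdh109/109 in orange and Hdh7/7 in blue; short lines are group means, and open points mark groups with the probe undetected on both arrays. With DNRest the lines differ by 0.25 for Lrp11 and -0.10 for Unc13a, neither called, Gprin1 is lower and Ppm1e higher in Hdh109/109 cells, and Stmn2 is higher in all 3 states.

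Corepressors, synaptic vesicle genes and the list of huntingtin and its partners held calls both ways. Among the 20 corepressor genes tested 3 were higher and 3 lower (15% each), near the 20.0% and 19.3% of all genes. Rcor2, a CoREST protein, read 8.89 and 8.81 in Hdh109/109 cells, against 7.61 and 7.53 in Hdh7/7 cells. Ctdsp2, a small phosphatase that works with REST, differed by 0.96 ± 0.14. Of 15 synaptic vesicle genes 2 were higher and 4 lower (13.3% and 26.7%), with the syntaxin gene Stx1a at 1.17 ± 0.14 and the active zone gene Rims2 at -1.53 ± 0.24. Of 15 genes of the huntingtin list 1 was higher and 4 lower (6.67% and 26.7%), Htt itself among the lower. Hap1, a transport adaptor that binds huntingtin, read 9.53 and 9.73 in Hdh109/109 cells, against 7.33 and 7.34 in Hdh7/7 cells, a difference of 2.29 ± 0.17 (adjusted p = 4.48e-06), while in untransfected cells it differed by -0.34 (adjusted p = 0.149). Its interaction against untransfected cells was 2.63 (adjusted p = 3.70e-04). With the empty vector Hap1 differed by 2.40 (adjusted p = 2.92e-06). Between DNRest and the empty vector its line difference changed by -0.10 (adjusted p = 0.916). F8a, which binds huntingtin on endosomes, differed by -1.19 ± 0.17. Of 6 neurotrophic factors and receptors 1 was higher and 2 lower (16.7% and 33.3%), and the growth factor Igf1 was at least 3.99-fold lower (adjusted p = 5.08e-06).

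Most genes of the extracellular matrix tested were higher in Hdh109/109 cells, with exceptions among both glycoproteins and collagens. Of 27 matrix glycoproteins and cross-linking enzymes tested 23 were higher and 3 lower (85.2% and 11.1%, against 20.0% and 19.3% of all genes). Their median was 2.24, and 1.42 without background correction. With DNRest 6 of the 27 were detected in Hdh109/109 cells only, and of the 15 detected on all 12 arrays 14 were higher. Emilin1, an elastic fibre protein, read 9.13 and 9.49 in Hdh109/109 cells, against 4.89 and 4.86 in Hdh7/7 cells, and Dcn, the proteoglycan decorin, read 8.64 and 8.82 in Hdh109/109 cells, against 4.77 and 4.60 in Hdh7/7 cells. Fbln2, a fibulin (named after its values were seen), was called higher by its brightest probe (1.19 ± 0.13) and lower by another. The 3 lower members were Prelp, described above, Thbs1, a thrombospondin, at -1.94 ± 0.25, and Tnc, a tenascin, at -0.58 ± 0.16, of which Tnc was not called with median scaling (adjusted p = 0.249), without Hdh109/109 DNRest replicate 1 (0.137) or without Hdh7/7 DNRest replicate 1 (0.11). Of 15 collagens 9 were higher and 6 lower (60% and 40%), and 2 of the 15 were detected in Hdh109/109 cells only. Col1a2, a chain of collagen I, read 9.35 and 9.50 in Hdh109/109 cells, against 4.72 and 4.79 in Hdh7/7 cells, and Col6a1, a chain of collagen VI, read 12.40 and 12.50 in Hdh109/109 cells, against 9.63 and 9.59 in Hdh7/7 cells. Col18a1, the source of endostatin, was lower, at 9.10 and 9.33 in Hdh109/109 cells, against 10.91 and 11.09 in Hdh7/7 cells. The other 5 lower members were Col4a1, Col4a2, Col4a5, Col4a6 and Col8a1, from -1.27 to -0.42, and were named after their values were seen. Col8a1 and Col4a5 were not called with median scaling (adjusted p = 0.52 and 0.6), and Col4a5 was not called without any 1 of the DNRest arrays (adjusted p = 0.0612 to 0.124). For 10 of the 15 the line difference was higher with DNRest than without transfection and for 0 lower; the count was 4 to 8 without any 1 array, with 4 without either Hdh7/7 DNRest replicate or without Hdh109/109 DNRest replicate 2.

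Receptors and ligands that act on the matrix and on patterning followed in part. Of 18 genes of the TGF-beta and BMP pathway 8 were higher and 2 lower (44.4% and 11.1%, against 20.0% and 19.3% of all genes). With DNRest 2 of the 18 were detected in Hdh109/109 cells only. The receptor gene Tgfbr2 read 13.81 and 13.98 in Hdh109/109 cells, against 11.41 and 11.40 in Hdh7/7 cells. The coreceptor gene Tgfbr3 read 10.85 and 10.97 in Hdh109/109 cells, against 7.58 and 7.86 in Hdh7/7 cells, and the target Tgfbi, a matrix protein, was at least 13.2-fold higher. Bmp4, a ligand, was lower, at -1.12 ± 0.14. Of 19 genes of the WNT pathway 9 were higher and 5 lower (47.4% and 26.3%), and 2 were lower with median scaling. With DNRest 5 of the 19 were detected in Hdh109/109 cells only and 1 in Hdh7/7 cells only. Of the 9 detected on all 12 arrays 5 were higher and 2 lower. The secreted inhibitor gene Sfrp2 was at least 12-fold higher, the ligand gene Wnt5a at least 1.95-fold higher, and the receptor gene Fzd3 differed by -1.61 ± 0.14. Of 16 growth factor receptors and IGF binding proteins 5 were higher and 3 lower (31.2% and 18.8%). With DNRest 2 of the 16 were detected in Hdh109/109 cells only, and of the 8 detected on all 12 arrays 3 were higher. In this list 2 binding proteins of the same growth factors went opposite ways. Igfbp2 read 10.07 and 10.36 in Hdh109/109 cells, against 7.84 and 7.78 in Hdh7/7 cells. Igfbp5 read 6.49 and 6.37 in Hdh109/109 cells, against 9.42 and 9.33 in Hdh7/7 cells.

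Imprinted genes, which are expressed from 1 parental allele, were higher. Of 12 tested of 18 with a probe, 9 were higher and 0 lower (median 1.80), against 20.0% and 19.3% of all genes. With DNRest 4 of the 12 were detected in Hdh109/109 cells only. Slc38a4, an amino acid transporter, read 10.60 and 10.74 in Hdh109/109 cells, against 4.79 and 4.52 in Hdh7/7 cells, at least 24.8-fold higher, and Mest was at least 25.4-fold higher. Cdkn1c, a cyclin-dependent kinase inhibitor, read 10.65 and 10.70 in Hdh109/109 cells, against 7.15 and 7.18 in Hdh7/7 cells. Of the 6 members detected on every array 4 were higher. Of 4 non-coding RNAs tested, 3 were higher: Dnm3os, the host RNA of a microRNA cluster, at 9.89 and 9.95 in Hdh109/109 cells, against 4.59 and 5.06 in Hdh7/7 cells, Xist, which silences an X chromosome, at 1.79 ± 0.31, and Snhg1, a snoRNA host RNA, at least 1.34-fold. Snhg1 was not called without Hdh109/109 DNRest replicate 1 (adjusted p = 0.0746), without Hdh109/109 DNRest replicate 2 (0.126) or without Hdh7/7 DNRest replicate 1 (0.214).

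Most targets of p53 were lower. Of 17 p53 targets tested 12 were lower and 1 higher (70.6% and 5.88%, against 19.3% and 20.0% of all genes), with a median of -0.78. With median scaling the lower count was 7. Cdkn1a, the p21 inhibitor of cyclin-dependent kinases, read 9.24 and 9.26 in Hdh109/109 cells, against 11.14 and 11.34 in Hdh7/7 cells, and Ccng1, a cyclin of the p53 feedback loop, read 8.51 and 8.42 in Hdh109/109 cells, against 10.64 and 10.72 in Hdh7/7 cells. The receptor gene Eda2r and Pmaip1, the apoptosis gene Noxa, differed by -1.88 and -1.55. Plk2, a polo-like kinase, was the member that was higher, at 1.21 ± 0.14. The interaction with transfection was called for 0 of the 17. Of 24 cell cycle genes 7 were lower (29.2%, against 19.3% of all genes), Ccnd1, Ccnd2, Rrm2 and Rb1 among them, and 1, the replication factor Mcm5, was higher, at 0.57 ± 0.14; Mcm5 and Rb1 were not called with median scaling, and Mcm5 was not called without Hdh109/109 DNRest replicate 1 (adjusted p = 0.0667) or without Hdh7/7 DNRest replicate 2 (0.0608). The lower count was 3 with median scaling.

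Stress and metabolic genes held few calls in one direction. Higher and lower shares were 28.6% and 33.3% for ATF4 response genes and 18.2% and 27.3% for chaperone genes. They were 16.7% and 33.3% for cholesterol synthesis genes and 13.3% and 33.3% for mitochondrial genes. Of all genes, 20.0% were higher and 19.3% lower. Of 15 genes of folding in the endoplasmic reticulum 3 were higher, a share equal to the 20.0% of all genes, and 0 lower, namely Sel1l, Pdia4 and Xbp1, at 0.81, 1.07 and 0.67, the last not called with median scaling. Of 21 ATF4 response genes 6 were higher and 7 lower, with the transcription factor gene Atf3 at least 1.85-fold higher; the lower count was 0 with median scaling and 4 without Hdh7/7 DNRest replicate 1. Of 11 chaperone genes 2 were higher and 3 lower. Bag3, the co-chaperone of selective autophagy, read 10.93 and 10.94 in Hdh109/109 cells, against 4.83 and 4.64 in Hdh7/7 cells, at least 29.7-fold higher, while its partner Hspb8 read 11.25 and 11.22 in Hdh109/109 cells, against 12.58 and 12.70 in Hdh7/7 cells. Of 18 cholesterol synthesis genes 3 were higher and 6 lower, and the lower count was 3 without any 1 of the DNRest arrays and 1 with median scaling. Of 15 mitochondrial genes 2 were higher and 5 lower, with Ppargc1a, the coactivator PGC-1 alpha, at least 1.86-fold lower; the lower count was 1 or 2 without any 1 of the DNRest arrays, 1 with median scaling and 2 with a replicate block.

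**Figure D4:**
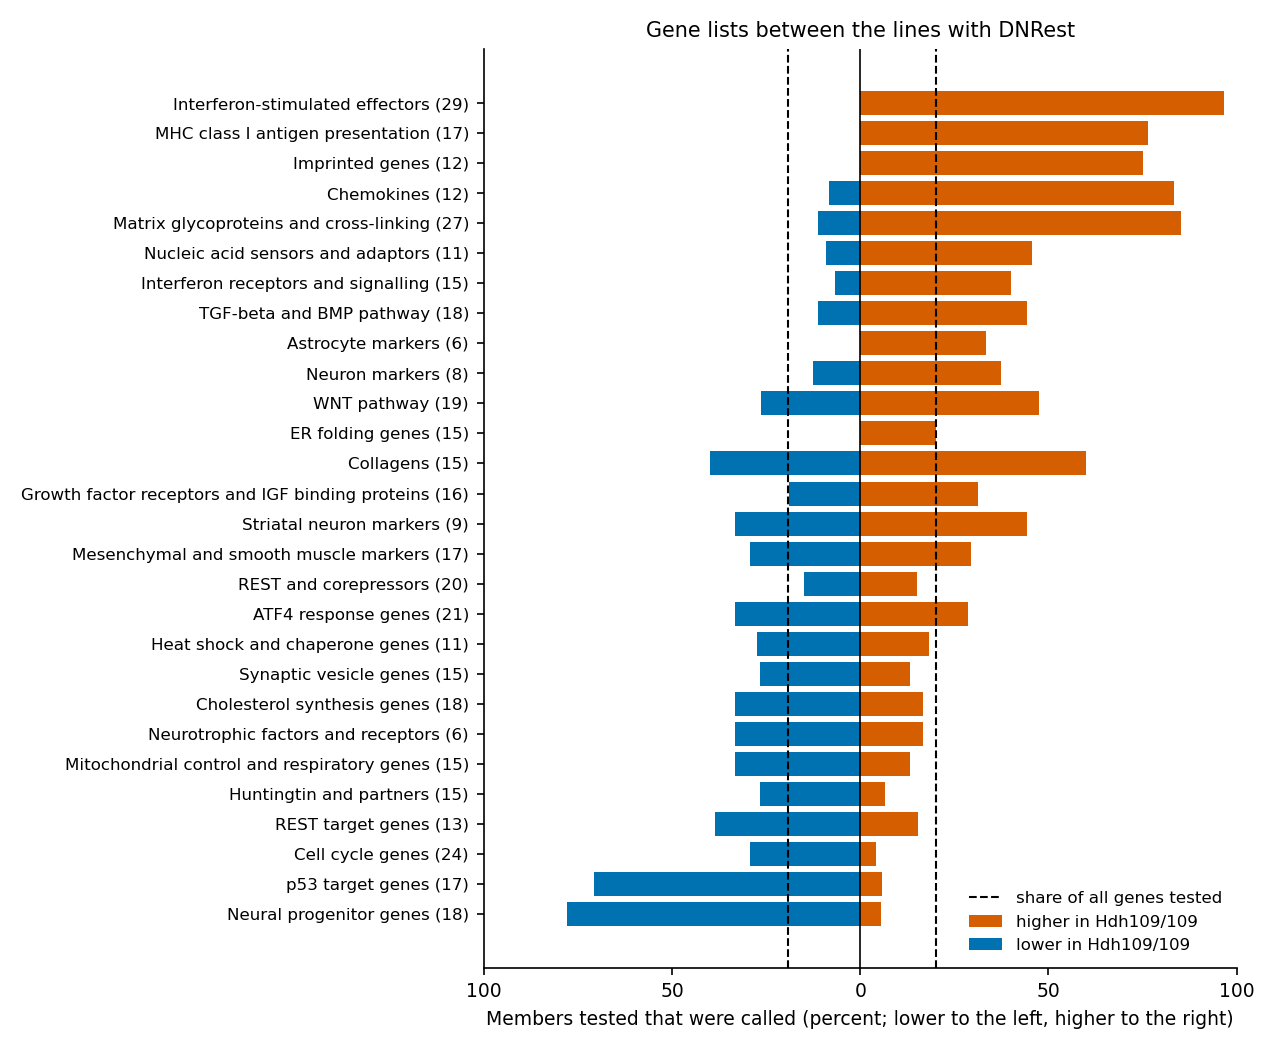
Share of the tested members of each gene list (number tested in brackets) that were called higher in Hdh109/109 cells (orange, to the right) or lower (blue, to the left) with DNRest, in percent; dashed lines mark the shares of all genes tested, 20.0% and 19.3%. Interferon-stimulated effectors have 96.6% of members called higher, and neural progenitor genes 77.8% called lower.

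Across all genes, the line difference with DNRest was set beside those of the other settings, which share no array with it but share the fit's variance estimate. Of the 3342 genes called with DNRest, 1926 were called in the same direction in untransfected cells (57.6% of them, and 58.1% of the 3313 called there) and 100 in the opposite direction. With the empty vector 2766 were called in the same direction (82.8%, and 70.2% of the 3941 called there) and 2 in the opposite direction. In all 3 settings 1720 genes were called in the same direction. At the threshold used 350 genes were called with DNRest only, but a change in line difference between DNRest and empty vector was called for 0 genes. Over the 8487 genes the differences with DNRest correlated at r = 0.782 with those of untransfected cells and at r = 0.934 with those of the empty vector.

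Some genes changed sides between untransfected cells and DNRest. Of the 3342 genes called with DNRest, 100 were called the opposite way in untransfected cells and 2 with the empty vector. A change in line difference between DNRest and empty vector was called for 0 genes. The changes below were therefore not shown to be particular to DNRest. Called higher in Hdh109/109 cells with DNRest but lower when untransfected were Lgals3bp (at least 6.09-fold higher, against a log2 difference of -1.41), Fcgrt, the neonatal antibody receptor (differences 2.01 and -1.13), and Nrep, a regulator of regeneration (1.15 and -1.96). With DNRest Fcgrt read 10.71 and 10.99 in Hdh109/109 cells, against 8.88 and 8.81 in Hdh7/7 cells. In untransfected cells it read 9.69 and 10.05 in Hdh109/109 cells, against 10.86 and 11.13 in Hdh7/7 cells. Igdcc4, Tent5a and Slc46a3 did the same, and Slc46a3 was not called without Hdh109/109 DNRest replicate 2 (adjusted p = 0.102), without Hdh7/7 DNRest replicate 1 (0.051) or without Hdh7/7 DNRest replicate 2 (0.0692). In the other direction S100a7a, a calcium-binding protein of epithelia, read 6.01 and 6.01 in Hdh109/109 cells, against 7.89 and 7.98 in Hdh7/7 cells, with DNRest. In untransfected cells it read 6.81 and 7.04 in Hdh109/109 cells, against 5.70 and 5.53 in Hdh7/7 cells. Phgdh, the first enzyme of serine synthesis, Srm, the spermidine synthase, and Lyar, a nucleolar factor, differed by -0.78, -0.75 and -0.77 with DNRest, against 0.78, 1.03 and 0.87 when untransfected. With median scaling Phgdh, Srm and Lyar were not called with DNRest (adjusted p = 0.187, 0.176 and 0.0946).

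**Figure D5:**
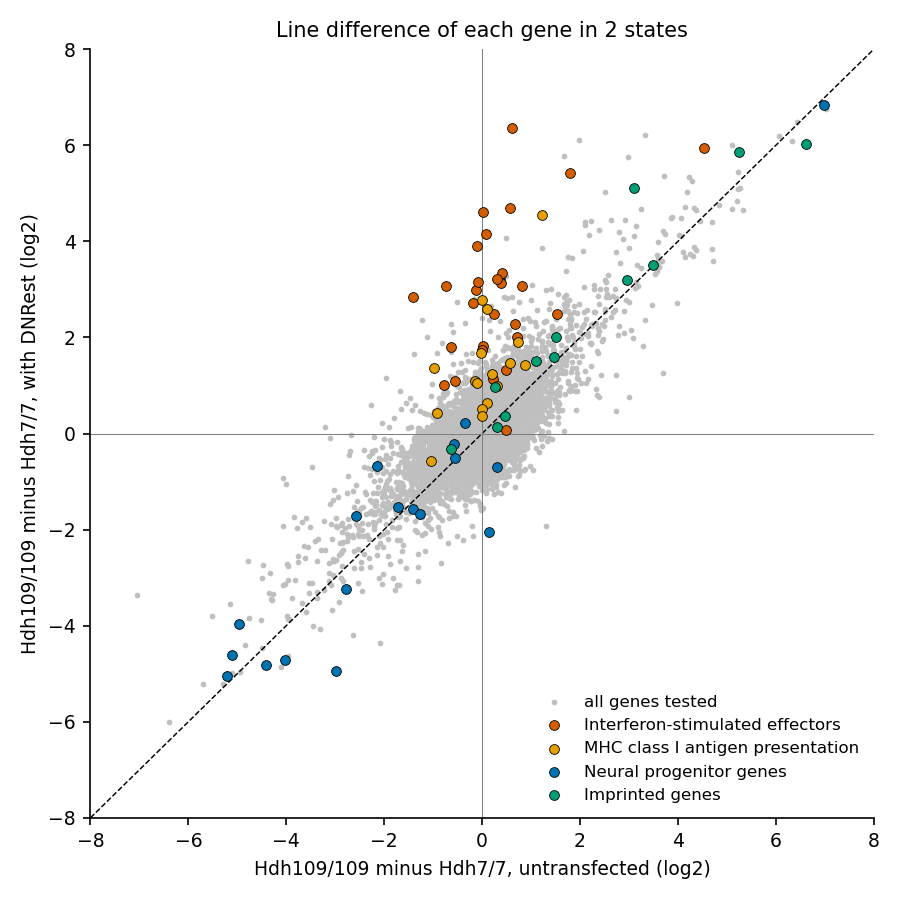
Difference between the lines (Hdh109/109 minus Hdh7/7, log2) of each of the 8487 genes with DNRest (vertical axis) against that in untransfected cells (horizontal axis), with 4 gene lists coloured and a dashed line of equal difference. The neural progenitor genes have a median of -1.71 with DNRest and -1.93 when untransfected, and the imprinted genes 1.80 and 1.49, while 24 of the 29 interferon-stimulated effectors have a called difference that is higher with DNRest.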

How the data were processed

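RNA of 12 samples was hybridised to Illumina mouse BeadChips, and the analysis starts from the deposited table of non-normalized probe intensity with a detection p-value per array; the sources used here do not say how the authors' scanner software treated background. A second table holds the authors' deposited log2 values, whose scale was read from the values (column medians 3.061 to 3.073). Its rows did not match the probe identifiers (rank correlation with the intensities 0.017 to 0.034), so it served only for counts over unnamed rows. The submitters' processing notes name limma, without a version.

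Intensities were corrected with normexp, taking the background from the detection p-values and adding an offset of 16, then quantile-normalized and taken to log2 (neqc in limma 3.58.1, R 4.3.3). The precision is limited by 2 arrays a group. A probe was tested if 2 or more of the 12 arrays gave it a detection p under 0.01. One limma model with a mean for each of the 6 groups was fitted to all 12 arrays (6 residual degrees of freedom, empirical Bayes, two-sided), with p-values adjusted by Benjamini-Hochberg over 15224 probes and a threshold of 0.05. Every adjusted p in the text is of this kind, and the scripts were tested on simulated data. A gene is its tested probe with the highest mean level. Gene names are those of the platform annotation, which gives 1 symbol for 28471 probes, several for 10 and none for 16024. Of 2556 genes with more than 1 tested probe, 31 had probes called in opposite directions. No column of other samples was present (0).

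The genes described come from a rule: Htt and Rest, the 12 highest and 12 lowest differences among called genes detected on all 4 arrays without overlap between the lines, the 8 highest bounds each way among called genes detected in 1 line, up to 4 members of each gene list by lowest p, up to 8 genes of each interaction, up to 6 genes each way that changed sides, and the genes that DNRest raised over empty vector in both lines. Not every gene so chosen is described. The members and the 32 gene lists were chosen with earlier results of these data known. Alternatives were no background correction, an offset of 50, median scaling, no detection filter or detection on all 12 arrays, a replicate block, the compared arrays alone, a minimum log2 difference of 1, the mean of all probes of a gene and leaving out each array; leaving out the 2 arrays of highest background was added after seeing the data.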

Additional observations from a re-analysis of the deposited data

Results flagged for a closer look

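The line difference (Hdh109/109 minus Hdh7/7) was not the same with DNRest and without transfection for 1421 probes by the interaction in limma, and 70 of the 159 genes named in the text were among them, 62 with a higher and 8 with a lower difference with DNRest. The values here are differences of log2 differences, DNRest minus untransfected. Between DNRest and the empty vector a change in line difference was called for 0 probes, so these values were not shown to be particular to DNRest. For 33 of the 70 genes both arrays of at least 1 of the 4 groups were below detection, so their values rest in part on background signal and are not bounds. Without any 1 of the 8 arrays 50 to 58 of the 70 were called in the same direction, with median scaling 51, and 0 had the opposite sign under any of these settings. Groups of 2 arrays are too small to look for single outlying arrays.

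Among interferon effectors, Rsad2 stood at 5.76, Ifit3 at 4.59, Lgals3bp at 4.26, Irgm2 at 4.11, Samd9l at 4.10, Gbp3 at 4.08, Uba7 at 4.06, Ifi27 at 3.62 and Trim25 at 1.42. The regulators and sensors Irf7 (2.98), Irf9 (2.88), Stat2 (2.48), Dhx58 (2.40), Ifih1 (2.31) and Irf1 (1.99) were also higher. Antigen presentation genes followed, with Psmb8 at 3.32, Psmb9 at 2.49 and H2-K1 at 1.70. The chemokine genes were Cxcl10 (4.14), Ccl5 (2.77), Ccl7 (2.3), Ccl2 (2.24) and Cx3cl1 (1.85), the last one being lower in Hdh109/109 cells with DNRest by less than without transfection.

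Of genes of the matrix and its receptors, Col3a1 had 2.87, Col6a1 2.39, Mmp2 1.95, Sned1 1.85, Tgfbi 1.82, Emilin1 1.53 and Dcn 1.16. For Prelp (3.68), Col8a1 (1.54), Col4a5 (1.22), Col4a6 (1.18), Col18a1 (0.95), Col4a1 (0.76) and Col4a2 (0.75) the Hdh109/109 cells were lower with DNRest, by less than without transfection. Growth factor and signalling genes were Igfbp2 (1.46), Sfrp2 (1.43) and Pdgfra (0.89). Igf1 (1.42) and Inhbb (0.93) were lower in Hdh109/109 cells in both settings, by less with DNRest.

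Among genes of neurons and glia, Hap1 had 2.63, Slc1a3 1.98, Celsr3 1.57, Eno2 1.55, Apoe 1.26 and Ppm1e 1.17. Pde1b (1.73) and the progenitor and forebrain factors Sox21 (1.02) and Otx1 (0.85) were lower in Hdh109/109 cells in both settings, by less with DNRest. Genes that changed sides upward were Tent5a (3.60), Fcgrt (3.13), Nrep (3.11), Igdcc4 (3.05) and Slc46a3 (2.06). The remaining higher values were Apol9a 2.64, Mest 1.99, Gstt3 1.75 and Xbp1 0.78, and Scara3 (0.90) and Hspb8 (0.76), which were lower in both settings and by less with DNRest.

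The 8 genes with a lower difference with DNRest were S100a7a (-3.24), Id1 (-1.96), Srm (-1.78), Lyar (-1.63), Phgdh (-1.56), Dis3 (-1.46), Rrm2 (-1.22) and Stmn2 (-0.85). Stmn2 was higher in Hdh109/109 cells in both settings, by less with DNRest.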

How the results depend on the processing

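The count of 5611 probes that differed between the lines with DNRest moved by over 1.5 times with median scaling (3450), with a minimum log2 difference of 1 (2160) and without any 1 of the DNRest arrays (3512 to 3726), and stayed within that range under the other alternatives (4146 to 7287). The count of 1421 probes for DNRest against no transfection moved to 438 with median scaling, 2157 without background correction, 2488 with the compared arrays alone, 888 with the minimum difference, 805 in the authors' log2 values over unnamed rows and 436 to 814 without any 1 array. Its calls were 91.8% higher with median scaling, against 57.6%. The count of 0 for DNRest against empty vector became 2 with median scaling and 2 in the authors' values, and 0 to 824 without any 1 array, the 824 without Hdh7/7 empty vector replicate 1. With a replicate block the counts were 5237, 970 and 0; differences between same-numbered arrays correlated at r = 0.03 for the 2 DNRest groups and at -0.447 to 0.356 over the 15 pairs of groups, above 0.1 in 2, so the numbers were not taken to pair arrays. Of the 159 named genes 0 were called in the opposite direction under the alternatives run, and 14 lost their call with median scaling. Fbln2 and Cgas were not called with the mean of their probes (adjusted p = 0.299 and 0.209), nor Snhg1 without the detection filter (0.0772). The causes were not tested, except that leaving out an array leaves fewer arrays to estimate the spread. Dim probes are limited by the background, since 1013 genes were undetected on both DNRest arrays of 1 line and 333 on all 4.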

Other observations

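Cell adhesion and cytoskeletal genes of the mesenchymal list, not described above, went both ways with DNRest. Cdh2, the N-cadherin gene, read 5.85 and 6.13 in Hdh109/109 cells, against 7.93 and 7.78 in Hdh7/7 cells, and Tagln, the smooth muscle actin-binding protein transgelin, read 6.10 and 6.09 in Hdh109/109 cells, against 7.19 and 7.39 in Hdh7/7 cells. Twist2, a transcription factor of connective tissue, differed by -1.66 ± 0.18 (limma, adjusted p = 6.84e-05). Higher in Hdh109/109 cells were Prrx1, a homeobox gene of limb mesenchyme, at 1.26 ± 0.18, Acta2, the smooth muscle actin gene, at 0.89 ± 0.12, and Snai2, a repressor of cadherins, at 0.83 ± 0.13.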
